A study of Mus musculus with 2 samples.

Results

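The 42 genes described here drive, restrain or carry out cell division and DNA replication. They were taken by symbol from the gene annotation, and each matched 1 of the 43346 gene rows measured in adult mouse lung. Polyadenylated RNA was sequenced from 2 libraries of C57BL/6J lung taken at 8 weeks of age. Each library holds pooled tissue of male and female littermates, and the labels name no treatment and no engineered allele. The libraries form 1 group of 2 replicates under 1 donor record, and the number of animals behind each is not stated in the labels. No comparison between conditions therefore exists, no p-value is given, and part of the spread between libraries may be technical. Expected counts, the estimated numbers of fragments per gene, summed to 48234745 in replicate 1 and 44182836 in replicate 2. Levels are given in TPM (a share of all transcripts, scaled for transcript length) for replicate 1 and then replicate 2. Every fold is a ratio of counts over library sizes scaled by the TMM method, with an exact (Clopper-Pearson) 95% interval that covers counting error only.

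A dividing cell passes from G1 into S phase when cyclin D and cyclin E kinases inactivate the retinoblastoma protein and release E2F transcription factors, which switch on the genes for DNA replication. Genes of G2 and M phase are switched on later by the B-MYB, MuvB and FOXM1 complexes, and in resting cells the DREAM complex keeps both sets low. In the adult lung most cells are quiescent, and division is mainly known from basal, club and alveolar type 2 cells and from resident macrophages and endothelium during slow turnover.

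The control regions of these genes carry short elements that go with those 2 waves. Promoters of 300 bases, 250 before and 50 after the start, were found for 34 of the 42 genes in the RefSeq set on build GRCm38.p6, which has the coordinates of mm10. They were searched on both strands for the core of the cell cycle genes homology region (CHR, TTTGAA), for CCAAT, and for an E2F element written as TTTCCCGC, TTTCGCGC, TTTGGCGC or TTTGCCGC. The stretches below run from 150 bases before to 20 bases after the start and are shown for 6 mitotic genes, for a pair of genes with E2F elements, and for both starts of Cdkn2a, whose transcripts are compared further on. They read 5′ to 3′ on the gene's strand, and capitals mark the 3 elements on either strand (CCAAT reads ATTGG and the CHR core reads TTCAAA on the opposite strand).
Ccnb1 (chr13:100786467-100786636, minus strand): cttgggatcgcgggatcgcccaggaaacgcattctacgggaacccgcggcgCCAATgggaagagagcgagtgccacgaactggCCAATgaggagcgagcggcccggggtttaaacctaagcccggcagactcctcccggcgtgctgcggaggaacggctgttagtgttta
Ccnb2 (chr9:70421535-70421704, minus strand): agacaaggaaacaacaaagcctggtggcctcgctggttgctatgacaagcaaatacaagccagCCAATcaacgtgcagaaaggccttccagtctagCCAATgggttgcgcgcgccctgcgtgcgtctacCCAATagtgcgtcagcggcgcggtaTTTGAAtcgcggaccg
Cdk1 (chr10:69352893-69353062, minus strand): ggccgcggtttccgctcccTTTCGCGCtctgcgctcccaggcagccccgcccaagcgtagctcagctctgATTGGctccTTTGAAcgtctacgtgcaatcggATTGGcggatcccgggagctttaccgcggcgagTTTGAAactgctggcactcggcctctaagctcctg
Top2a (chr11:99024170-99024339, minus strand): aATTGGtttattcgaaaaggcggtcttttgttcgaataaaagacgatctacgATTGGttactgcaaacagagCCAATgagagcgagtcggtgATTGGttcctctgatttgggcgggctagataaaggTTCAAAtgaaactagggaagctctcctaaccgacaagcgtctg
Mki67 (chr7:135716360-135716529, minus strand): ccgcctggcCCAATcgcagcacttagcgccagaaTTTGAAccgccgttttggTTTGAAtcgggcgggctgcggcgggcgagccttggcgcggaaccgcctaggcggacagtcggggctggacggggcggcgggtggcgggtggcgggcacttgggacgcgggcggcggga
Cdc20 (chr4:118437324-118437493, minus strand): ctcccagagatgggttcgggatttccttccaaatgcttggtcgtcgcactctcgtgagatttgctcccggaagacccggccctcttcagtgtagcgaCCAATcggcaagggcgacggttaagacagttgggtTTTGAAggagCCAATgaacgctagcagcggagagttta
Mcm6 (chr1:128359686-128359855, minus strand): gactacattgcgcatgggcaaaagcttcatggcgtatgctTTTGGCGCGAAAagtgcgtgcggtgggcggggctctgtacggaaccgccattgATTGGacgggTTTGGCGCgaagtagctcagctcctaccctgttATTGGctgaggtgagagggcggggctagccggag
Cdc25a (chr9:109875429-109875598, plus strand): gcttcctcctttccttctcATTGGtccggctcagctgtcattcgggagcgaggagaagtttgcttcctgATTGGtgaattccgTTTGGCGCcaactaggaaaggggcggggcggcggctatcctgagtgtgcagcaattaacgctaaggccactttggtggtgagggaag
Cdkn2a, the Ink4a start (chr4:89282173-89282342, minus strand): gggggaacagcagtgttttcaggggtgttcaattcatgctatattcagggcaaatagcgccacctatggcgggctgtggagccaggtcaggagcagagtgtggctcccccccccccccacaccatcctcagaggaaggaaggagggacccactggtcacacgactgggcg
Cdkn2a, the Arf start (chr4:89294600-89294769, minus strand): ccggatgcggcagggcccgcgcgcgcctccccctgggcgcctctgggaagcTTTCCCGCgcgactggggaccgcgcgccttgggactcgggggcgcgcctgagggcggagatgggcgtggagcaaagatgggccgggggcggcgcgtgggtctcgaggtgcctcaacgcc
Positions count from the start, with -1 the base just before it and no position 0. In these stretches, Cdk1 held CHR cores whose first bases lay at -71 and -15 and CCAAT boxes at -80 and -48, besides an E2F element at -131. Ccnb2 had CCAAT boxes at -87, -54 and -21, evenly spaced, with a CHR core at 5. Ccnb1 had CCAAT boxes at -99 and -67 and no CHR core in its 300 bases. Mcm6 held E2F elements at -110, -106 and -47, of which the first 2 overlap on opposite strands. The Arf start of Cdkn2a had an E2F element at -99, while the Ink4a start had no element in the printed stretch.

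CHR cores were frequent in the promoters of mitotic genes, and E2F elements in those of replication genes. Of 11 promoters of G2, M phase and mitotic exit genes, 8 (72.7%) held a CHR core, 10 (90.9%) held CCAAT and 1 (9.09%) held an E2F element. In Plk1, Aurka and Bub1b the only CHR core lay after the start, at 31, 33 and 41, outside the stretch of the kind printed above. Ccnb1, Bub1 and Birc5 held no CHR core. Of 9 promoters of 8 replication licensing and fork genes, 2 (22.2%) held a CHR core, 8 (88.9%) held CCAAT and 5 (55.6%) held an E2F element. Over all 32851 promoters of the set, the shares were 17.9%, 37.4% and 2.26%. CHR and CCAAT occurred together in 8 of the 11 mitotic promoters and in 6.95% of all promoters. These are matches of letters in a fixed window and were not tested as sites.

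**Figure D1:**
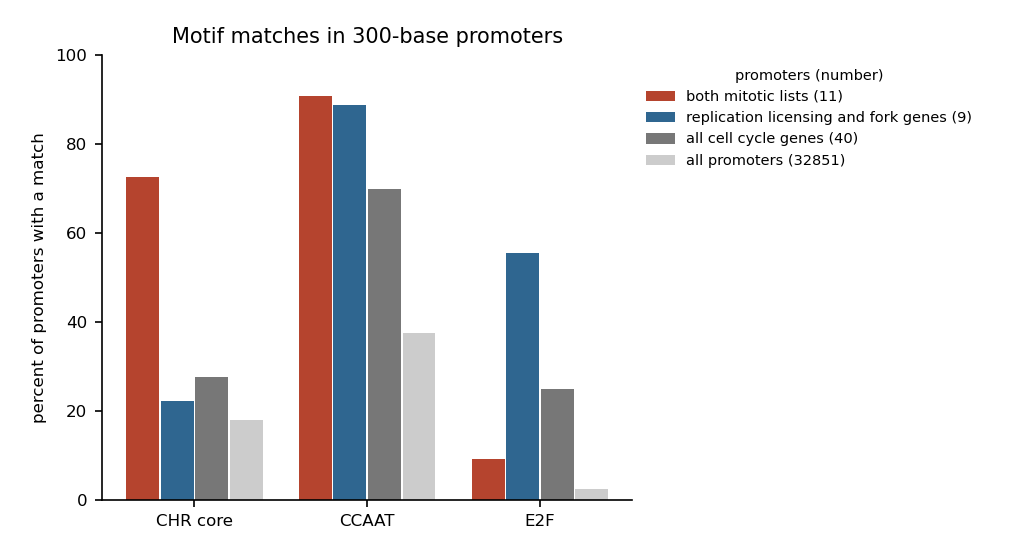
Percent of 300-base promoters with at least 1 match to the CHR core, CCAAT or an E2F element, by gene list, with the number of promoters in the legend. CHR cores stand highest in the mitotic lists. An E2F element is held by 1 of 11 mitotic promoters (9.09%), by 5 of 9 licensing and fork promoters and by 2.26% of all promoters.

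Both libraries carried the lung's own markers, and they differed in markers of other tissues. All 8 lung epithelial and endothelial markers were detected in both, and none differed 2-fold. Of all genes averaging 10 counts or more, 7.12% were 2-fold higher in replicate 1 and 3.61% in replicate 2. Among those with 10 to 500 counts, the shares were 13.7% and 6.42%. All 6 squamous oesophagus markers were 2-fold higher in replicate 1 (summed 5317 and 1.17 TPM, with Krtdap and Krt6a at 0 in replicate 2), as were all 5 basal epithelial markers (194 and 3.59 TPM) and all 8 of skeletal muscle (3010 and 59.0 TPM). All 7 intestinal and pancreatic markers (3.76 and 217 TPM) and 4 of 7 counted erythroid markers (12083 and 35350 TPM over all 8, mostly haemoglobin) were 2-fold higher in replicate 2. Of the other erythroid markers, Gata1 had 98 and 42 counts (1.95-fold higher in replicate 1, 1.34 to 2.87), Tfrc had 1536 and 821 (1.56-fold, 1.43 to 1.70), and Epor was 1.15-fold higher in replicate 2 (1.02 to 1.30). None of 6 lymphocyte markers differed 2-fold (114 and 85.6 TPM). Log2 ratios, replicate 1 over replicate 2, were above 0 for 5 of the 6, where 51.7% of all genes were. The median of the 6 was 0.37. Cd79b was 1.45-fold higher in replicate 1 (1.33 to 1.58), and Cd2 was 1.15-fold higher in replicate 2 (0.983 to 1.34). The summed myeloid precursor markers stood at 4.71 and 4.92 TPM over all 5. Of these, Elane (21 and 3 counts) and Mpo (28 and 8) were 2-fold higher in replicate 1. Both average 10 counts only through replicate 1, so their calls depend on the library where they are high. The same holds for markers of the other lists, such as Krtdap, Krt6a, Sprr3, Cnfn and Dsc3 through replicate 1. It holds for Tff3, Sycn and Ctrc through replicate 2. Prtn3 (67 and 82) was 1.47-fold higher in replicate 2 (1.05 to 2.06). Summed thymocyte markers were at 4.56 and 3.37 TPM and those of alveolar macrophages at 579 and 472 TPM. Of 5 macrophage markers, 3 were higher in replicate 1, and Fabp1 alone 2-fold (140 and 53 counts, 2.20-fold, 1.60 to 3.08). Siglecf was 1.19-fold higher in replicate 2 (1.09 to 1.30). Among thymocyte markers, Cd8a had 173 and 94 counts (1.54-fold higher in replicate 1, 1.19 to 2.00), Cd8b1 had 118 and 98, Themis had 15 and 5, Ptcra had 0 and 1, and Rag2 was at 0 in both libraries. Among germinal centre markers, S1pr2 had 5943 and 4401 counts, Gcsam had 28 and 35, Mybl1 had 16 and 10, and Rgs13 was at 0 in both. Spike-in RNA took 1.44% of counts in replicate 1 and 1.03% in replicate 2, and scaling by it in place of TMM moved the median log2 ratio of all genes tested, replicate 1 over replicate 2, to -0.33, against 0.02 with TMM. Folds just above 1 therefore change direction on that scale: 15 of the 41 counted genes had log2 ratios above 0 with spike-in scaling and 28 with TMM.

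Most of the listed genes for entering and running S phase were detected in lung RNA. On the log2(TPM + 1) scale, the median level of licensing and fork genes was 3.28 and 3.06. It was 1.94 and 1.00 for G2 and M phase regulators, and 1.75 and 1.20 for mitotic kinases, checkpoint and exit. The median of the G1 to S genes, 1.43 and 1.53, lay below both mitotic roles in replicate 1 and above both in replicate 2. At 1 TPM or more in both libraries, 34 of the 42 genes were detected, against 60.5% of 21474 protein-coding genes and 32.0% of all gene rows. Another 4, Ccnb1, Top2a, Aurka and Bub1b, passed 1 TPM in replicate 1 only. Mki67, Bub1, Cdc6 and Ccne2 passed it in neither library. The median level of all 42 genes was 2.90 on the log2(TPM + 1) scale in replicate 1 and 2.57 in replicate 2. Over the 17334 genes tested, those averaging 10 counts or more, it was 3.44 and 3.17. That average was reached by 41 of the 42 genes; Ccne2, with 4 and 3 counts, did not reach it and enters no count of ratios. By the authors' deposited TPM intervals, of unstated level, 18 of the 41 genes were higher in replicate 1 with no overlap, where 39.0% of all genes tested were, and 4 were higher in replicate 2, where 14.6% were.

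**Figure D2:**
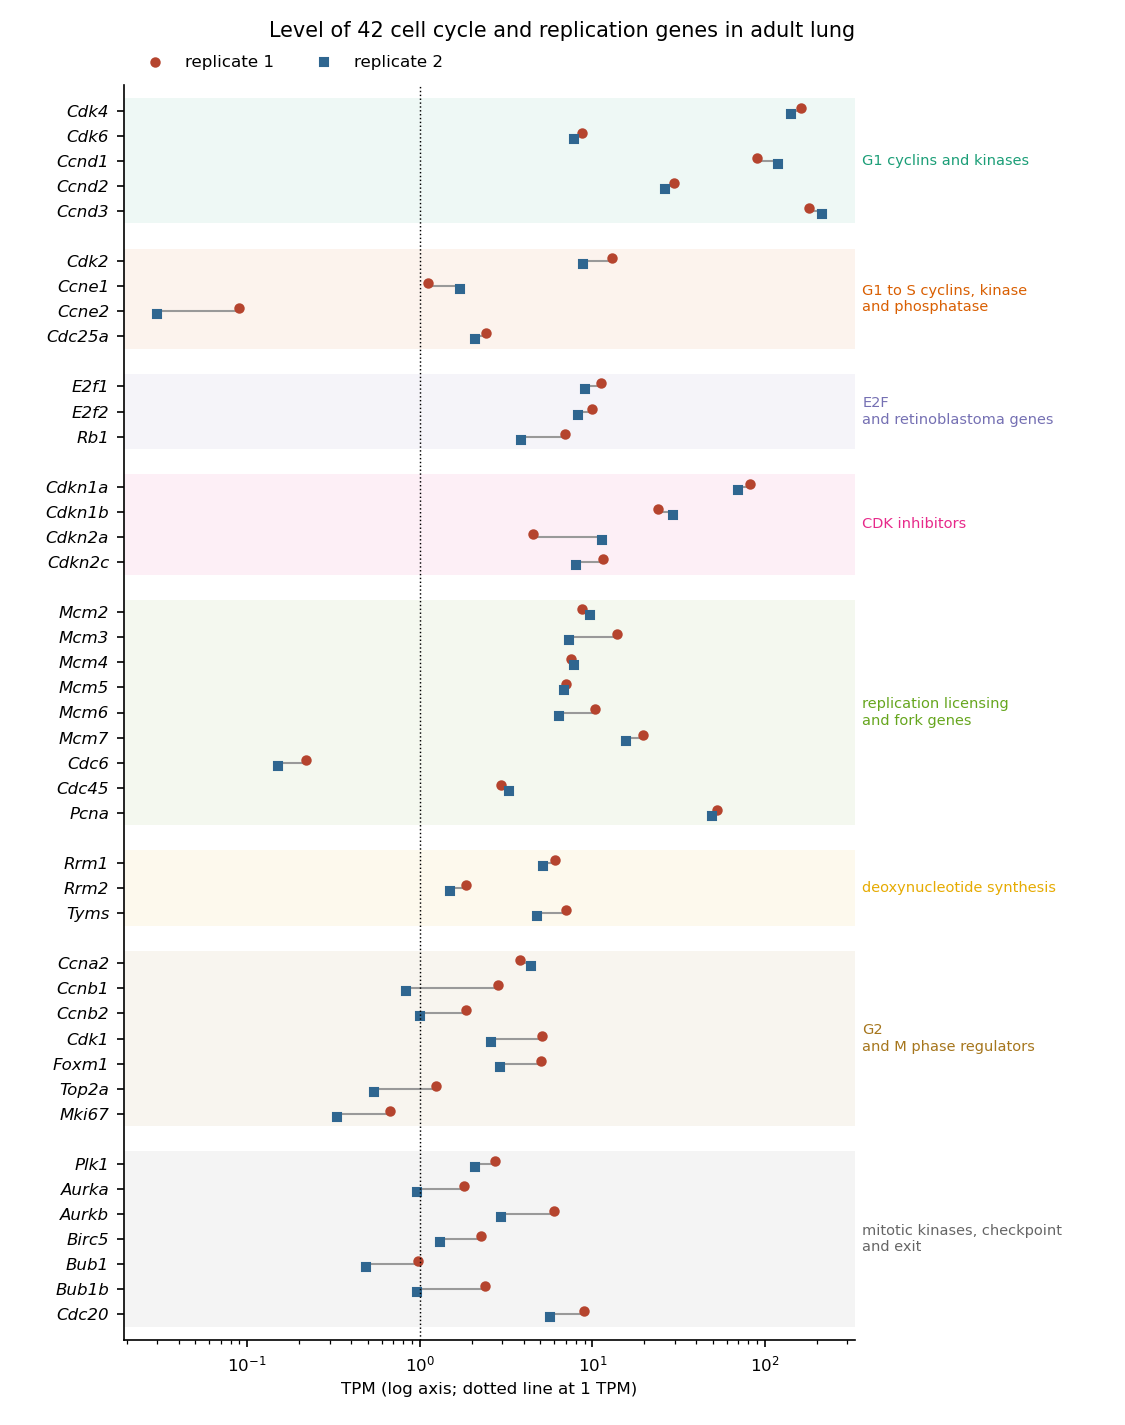
TPM of the 42 genes on a log axis, grouped by role, with a point for each library and a dotted line at 1 TPM. Ccnd3, Cdk4, Ccnd1, Cdkn1a and Pcna lie highest, and Ccne2 and Cdc6 lie lowest in both libraries.

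The genes that govern G1 were among the most abundant of the set. Ccnd3, a D-type cyclin that binds Cdk4 and Cdk6, had 178.97 and 213.06 TPM. Cdk4, the kinase that begins to phosphorylate the retinoblastoma protein, had 161.13 and 140.85 TPM. Ccnd1, the D-type cyclin most tied to growth factor signals, had 89.74 and 119.61 TPM. These 3 exceeded Ccnd2 (29.55 and 26.19 TPM) and Cdk6 (8.70 and 7.82 TPM) by more than the gap between the libraries. The D cyclins together summed to 298.26 and 358.86 TPM, in the same order of Ccnd3, Ccnd1 and Ccnd2 in both libraries. Ccnd1 was 1.57-fold higher in replicate 2 (1.54 to 1.61, 11286 and 14828 counts), and Ccnd3 was 1.28-fold higher there (1.25 to 1.32).

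Not all of the Cdk4 RNA was annotated as coding. Coding transcripts took 41.7% and 37.3% of its TPM. Cdk4-205, a coding transcript, led in replicate 1 with 31.37% against 26.05% in replicate 2, while Cdk4-208, annotated as a target of nonsense-mediated decay, took 24.83% and 31.86%. Cdk4 overlaps Tspan31 on the opposite strand, which had 3213 and 2179 counts. The libraries are stranded per the labels, but the strand setting of the counting is unstated, so reads of such overlapping pairs may be split between them.

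Genes of the step from G1 into S phase had modest levels, with the cyclin E genes the lowest. Cdk2, the kinase partner of cyclins E and A, had 13.00 and 8.77 TPM and was 1.26-fold higher in replicate 1 (1.14 to 1.39). Ccne1, which encodes cyclin E1, had 1.11 and 1.70 TPM from 61 and 46 counts, and Ccne2 had 0.09 and 0.03 TPM. Cdc25a, the phosphatase that activates Cdk2, had 2.42 and 2.09 TPM. The kinase thus stood above its cyclin E partners by TPM in both libraries. For Ccne1 the TPM is higher in replicate 2 although its counts are not: coding Ccne1-201 took 80.29% and 27.28% of its TPM, and Ccne1-202, annotated for nonsense-mediated decay, took 19.71% and 56.08%, on 3.32 and 14.13 counts.

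The E2F and retinoblastoma genes lay within a narrow range. E2f1, an activating E2F, had 11.17 and 9.11 TPM, and E2f2, another activating member, had 9.93 and 8.23 TPM. Rb1, which encodes the retinoblastoma protein that holds E2F factors inactive, had 6.92 and 3.86 TPM and was 1.38-fold higher in replicate 1 (1.24 to 1.54). The intervals of the folds of E2f1 (0.956 to 1.15) and E2f2 (0.997 to 1.16) include 1. E2f4, a repressive E2F from the wider list of E2F and DREAM genes, had 103.22 and 95.27 TPM, well above either activator in each library.

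Among the inhibitors of cyclin-dependent kinases, Cdkn1a was the most abundant and Cdkn2a differed most between the libraries. Cdkn1a, which encodes p21, had 82.34 and 69.70 TPM. Cdkn1b, which encodes p27, had 23.86 and 29.45 TPM and was 1.29-fold higher in replicate 2 (1.22 to 1.36). Cdkn2c, which encodes the Cdk4 and Cdk6 inhibitor p18, had 11.56 and 8.06 TPM, on 574 and 467 counts. Its fold was 1.03 in favour of replicate 1, with an interval (0.906 to 1.16) that includes 1; Cdkn2c-201 took 64.98% and 45.30% of its TPM.

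Cdkn2a (chromosome 4, 89274471 to 89294653 on mm10, minus strand) had 4.55 and 11.42 TPM from 107 and 260 counts. It was 2.91-fold higher in replicate 2 (2.32 to 3.68), the only gene of the 41 counted that was 2-fold higher there, where 3.61% of all 17334 genes, and 6.42% of those with 10 to 500 counts, were. Its whole interval lies past 2-fold, as in 1.69% of all genes. The gene encodes 2 unrelated proteins from separate first exons: p16Ink4a, an inhibitor of Cdk4 and Cdk6, and p19Arf, which stabilises p53. The gap lay in the Ink4a transcript. Cdkn2a-201, which starts at the Ink4a promoter printed above, had 85.64 and 239.04 counts, or 3.69 and 10.55 TPM, and was 3.33-fold higher in replicate 2 (2.59 to 4.31). Cdkn2a-202, from the Arf first exon, starts at 89294653 in GENCODE and at 89294619 in RefSeq. It had 21.36 and 20.96 counts, or 0.86 and 0.87 TPM, and the interval of its fold (0.62 to 2.31, replicate 2 over replicate 1) includes 1. The Ink4a form took 81.05% and 92.40% of the gene's TPM, and the transcripts share their later exons, so the split is an estimate.

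**Figure D3:**
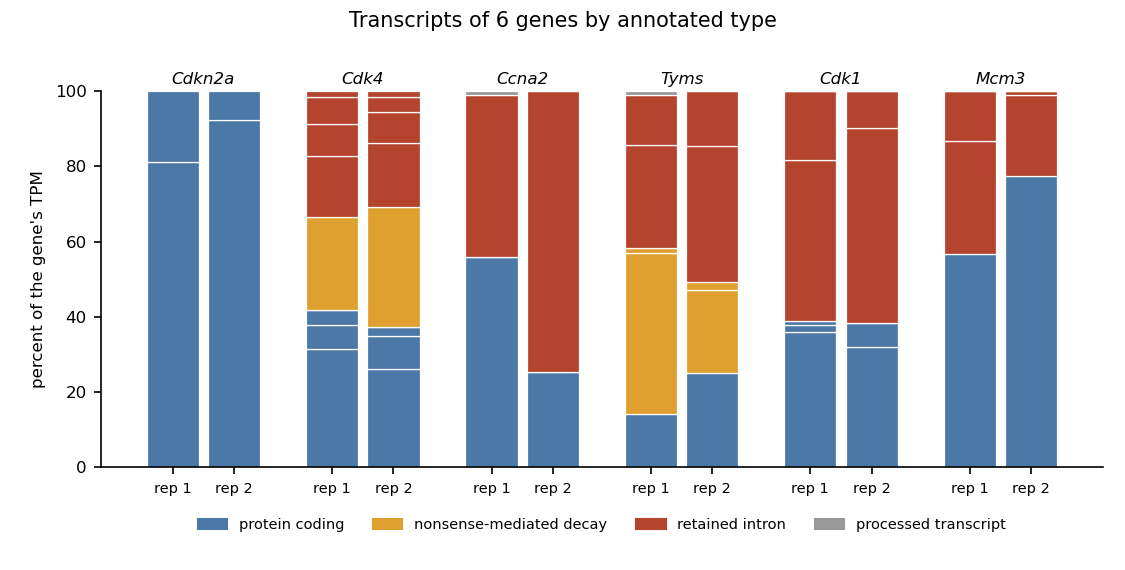
Percent of each gene's TPM by annotated transcript type, for 6 genes and both libraries, replicate 1 left. Coding transcripts take 55.8% of Ccna2 in replicate 1 and 25.4% in replicate 2. They take less than the other types together for Cdk4, Tyms and Cdk1 in both libraries.

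Of the 9 replication licensing and fork genes, 8 were detected in both libraries, and Cdc6 was not. The MCM2 to MCM7 proteins form 1 hexamer, the replicative helicase, in equal amounts. Their 6 genes summed to 67.3 and 53.84 TPM, and the highest exceeded the lowest by 2.78-fold in replicate 1 (Mcm7 over Mcm5) and 2.46-fold in replicate 2 (Mcm7 over Mcm6). Mcm7 led with 19.68 and 15.71 TPM. Mcm7 overlaps Cops6 and Ap4m1 on the opposite strand and hosts Mir25, Mir93 and Mir106b in its introns, none of which had a count.

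The other helicase genes lay close together, and their order changed between the libraries. Mcm3 had 13.94 and 7.36 TPM, Mcm6 had 10.40 and 6.39 TPM, and Mcm2 had 8.68 and 9.68 TPM. Mcm4 had 7.53 and 7.82 TPM, and Mcm5 had 7.07 and 6.88 TPM. By counts, Mcm6 was 1.34-fold (1.20 to 1.49) and Mcm3 1.25-fold (1.13 to 1.39) higher in replicate 1, whereas Mcm2 was 1.31-fold (1.20 to 1.42) and Mcm4 1.22-fold (1.11 to 1.33) higher in replicate 2. The TPM gap of Mcm3 exceeds its gap in counts: Mcm3-205, a retained-intron transcript, took 30.20% of its TPM in replicate 1 and 0% in replicate 2, on 60.49 and 0 counts, the last of which allows up to 3. Its coding transcript had 7.90 and 5.71 TPM.

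Pcna, the sliding clamp of the replication fork, was the most abundant gene of this role at 52.46 and 49.02 TPM. The processed pseudogene Pcna-ps2 had 62 and 26 counts beside 2436 and 2245 for Pcna, and reads may be divided between such near-identical copies. Cdc45, a subunit of the active helicase, had 2.97 and 3.29 TPM. Cdc45-201 took 47.98% and 18.01% of this, and Cdc45-202 took 45.57% and 70.14%. Cdc6, which loads the helicase onto origins and is lost from resting cells, had 0.22 and 0.15 TPM from 31 and 17 counts. Its fold of 1.52 has an interval from 0.816 to 2.93.

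The genes for deoxynucleotide synthesis showed folds close to 1 by counts over all their transcripts. Rrm1, the large subunit of ribonucleotide reductase, had 6.05 and 5.15 TPM, and Rrm2, the small subunit made in S phase, had 1.86 and 1.5 TPM. Rrm1 thus exceeded Rrm2 by 3.25-fold in replicate 1 and 3.43-fold in replicate 2. Tyms, thymidylate synthase, had 7.02 and 4.77 TPM, of which coding transcripts took 14.1% and 25.2%. Its log2 ratio, replicate 1 over replicate 2, depended on the measure. It was -0.02 over all transcripts, -0.48 on coding transcripts alone and 0.55 by log2(TPM + 0.1). On coding transcripts alone, Rrm1 and Rrm2 had 0.01 and 0.10. The intervals of all 3 folds include 1, and the widest, that of Rrm2, runs from 0.814 to 1.39.

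All 14 genes of G2, M phase and mitotic exit were higher in replicate 1 with TMM scaling, and 12 of them with spike-in scaling. On the log2 scale (TMM-scaled CPM, prior count of 2) their ratios ran from 0.16 to 1.31 with a median of 0.61, against 0.02 over all genes tested and 0.00 over the 27 counted genes of the other roles. A ratio above 0 was found for 14 of 14 of them, for 14 of the 27 others, and for 51.7% of all 17334 genes, or 61.9% of the 7605 averaging 10 to 500 counts, where these 14 lie. Their summed counts were 2984 and 1692, a fold of 1.47 (1.39 to 1.56), and their summed TPM was 45.68 and 27.00. At 1.5-fold or more, 8 of the 14 were higher in replicate 1, where 14.7% of all genes and 26.9% of those with 10 to 500 counts were. In 12 of the 14 the interval of the fold lay wholly above 1, where 33.0% of all genes did. Over all 41 counted genes, 9 were 1.5-fold higher in replicate 1, and 2 in replicate 2, where 10.2% of all genes, and 13.3% of those with 10 to 500 counts, were. Intervals wholly below 1 were found for 8 of the 41 genes and for 33.4% of all genes. Basal epithelial markers (194 and 3.59 TPM, 5 of 5 past 2-fold) also differed between these libraries, as did squamous, muscle, erythroid and intestinal markers. Myeloid precursor markers differed in both directions, those higher in replicate 1 on low counts. Of the alveolar macrophage markers, Fabp1 alone was 2-fold higher in replicate 1. No lymphocyte marker differed 2-fold, but 5 of 6 had ratios above 0, with a median of 0.37 over the 6. The part of all these markers in the mitotic difference was not tested. In bulk RNA, fewer cells in mitosis and less RNA per such cell cannot be told apart.

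**Figure D4:**
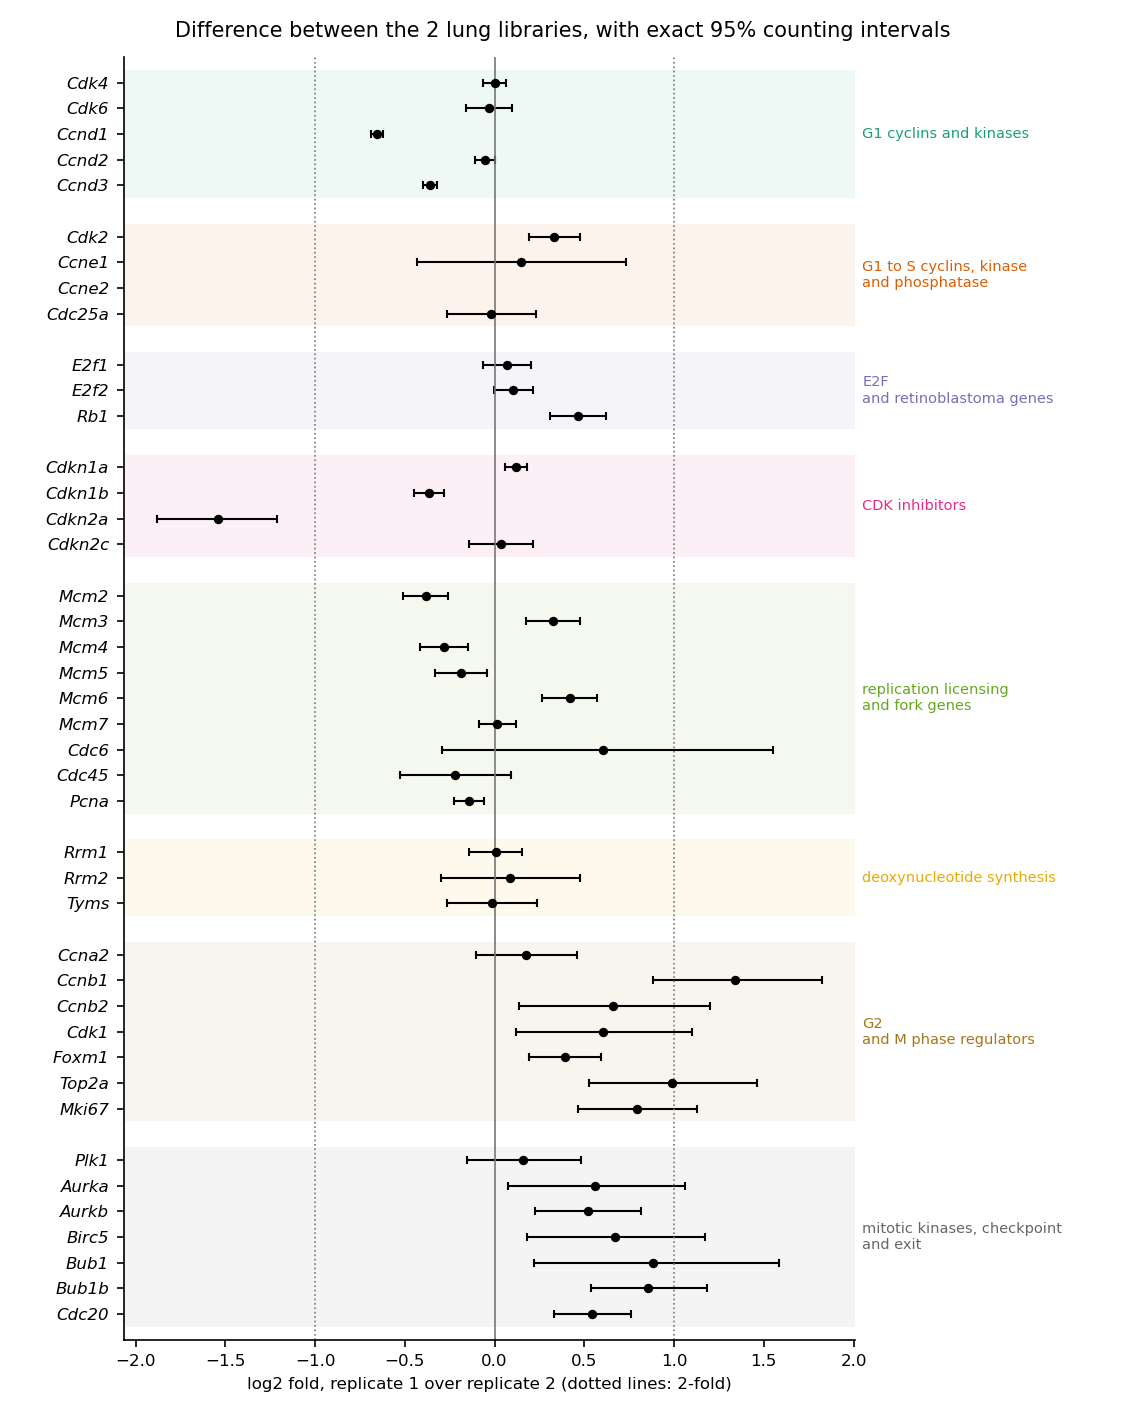
Log2 fold of counts, replicate 1 over replicate 2, for each gene by role, with the exact 95% interval as a bar and dotted lines at 2-fold. The 14 mitotic genes all lie right of 0 with TMM scaling (12 with spike-in scaling), from 1.12-fold to 2.53-fold, and Cdkn2a stands alone past 2-fold on the left.

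The cyclins and kinase that trigger mitosis spanned most of that range. Ccnb1 (chromosome 13, 100778650 to 100786570, minus strand), the main mitotic cyclin, had 158 and 52 counts, or 2.85 and 0.83 TPM. It was 2.53-fold higher in replicate 1 (1.84 to 3.54), the single gene of the 41 past 2-fold in that direction, where 7.12% of all genes, and 13.7% of those with 10 to 500 counts, were. Its interval does not lie wholly past 2-fold, as that of 3.60% of all genes did. Its coding transcripts Ccnb1-202 and Ccnb1-201 start at 100786486 and 100786570: Ccnb1-202, at the start of the printed promoter, had 64.30 and 7.96 counts, and Ccnb1-201 had 60.00 and 34.04. Ccnb2 had 1.85 and 1.00 TPM from 89 and 47 counts (1.58-fold, 1.10 to 2.30). Cdk1, the kinase both cyclins activate, had 5.11 and 2.58 TPM from 102 and 56 counts (1.52-fold, 1.09 to 2.14), and coding transcripts took 38.9% and 38.3% of its TPM.

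Ccna2, the S and G2 phase cyclin, had the smallest fold of its role by counts and the opposite order by TPM. It had 249 and 184 counts (1.13-fold higher in replicate 1, 0.929 to 1.37) but 3.78 and 4.41 TPM. It overlaps Exosc9 on the opposite strand, which had 312 and 166 counts. Coding Ccna2-201 had 209.78 and 109.08 counts and was 1.61-fold higher in replicate 1 (1.27 to 2.04). The split of counts between transcripts is an estimate, and its error is not covered by that interval. Ccna2-202, a short retained-intron transcript, had 38.12 and 74.92 counts, and its share of the gene's TPM was 43.15% and 74.53%. Among the coding transcripts alone, all 14 mitotic genes had ratios above 0, with a median of 0.65.

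The chromosome and transcription genes of this role lay in between. Top2a, the topoisomerase that untangles sister chromatids, had 133 and 56 counts (1.24 and 0.54 TPM) and, at 1.98-fold (1.44 to 2.76), stood just under the 2-fold limit. Mki67, which encodes the proliferation antigen Ki-67 that coats mitotic chromosomes, had 239 and 115 counts but only 0.67 and 0.33 TPM, and was 1.73-fold higher in replicate 1 (1.38 to 2.19). Foxm1, the transcription factor of the G2 wave, had 5.05 and 2.92 TPM and was 1.31-fold higher (1.14 to 1.51).

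The kinases and checkpoint genes of mitosis had the same direction. Bub1, a spindle checkpoint kinase, had 62 and 28 counts (1.85-fold, 1.16 to 2.998), and its partner Bub1b had 254 and 117 (1.81-fold, 1.45 to 2.27). Birc5, or survivin, had 103 and 54 counts (1.59-fold, 1.13 to 2.25), and Aurkb, the kinase it works with at centromeres, had 263 and 153 (1.43-fold, 1.17 to 1.76). In both of these pairs each partner was higher in replicate 1, and the intervals lie above 1. Aurka, the kinase of spindle poles, had 1.80 and 0.96 TPM (1.47-fold, 1.05 to 2.09). Cdc20, the activator of the anaphase-promoting complex, had the highest level of the 14 at 8.97 and 5.65 TPM and was 1.46-fold higher (1.26 to 1.69). It overlaps Elovl1 on the opposite strand, which had 36416 and 35070 counts. Plk1, polo-like kinase 1, had 2.74 and 2.09 TPM, and the interval of its fold of 1.12 (0.898 to 1.39) includes 1.

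With spike-in scaling, 12 of the 14 mitotic genes had log2 ratios above 0, with a median of 0.26, where 24.7% of all genes did. The exceptions were Ccna2 at -0.18 and Plk1 at -0.19. No gene of the 41 was then 2-fold higher in replicate 1. The median of all 41 genes was -0.23 with spike-in scaling and 0.12 with TMM, beside -0.33 and 0.02 over all genes.

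Wider pathway lists were read beside the 42 genes. Of 26 counted genes of the kinetochore and spindle, 23 had a ratio above 0 (51.7% of all genes, and 61.9% of those with 10 to 500 counts, did), the median was 0.69, and 7 were 2-fold higher in replicate 1 (7.12% and 13.7%). Of those 7, Nuf2 and Spc25 (20 and 8 counts each, 0.880 to 5.47) have intervals that include 1, and with Ttk (25 and 8) they average 10 counts only through replicate 1. Cenpf, a kinetochore protein, had 74 and 15 counts (4.12-fold, 2.34 to 7.72), and Nusap1, which bundles spindle microtubules, had 48 and 11 (3.64-fold, 1.86 to 7.77). The most abundant of that list, Bub3 (62.83 and 46.07 TPM) and Cdc25b (34.70 and 32.11 TPM), differed by folds of 1.17 and 0.92, the last being higher in replicate 2.

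The lists for S phase had medians nearer to the 0.02 of all genes than the kinetochore and spindle list had. Ratios above 0 were found for 51.7% of all genes and 61.9% of those with 10 to 500 counts. Of 15 counted genes of origin recognition and initiation, 8 had ratios above 0 and the median was 0.00. Orc4, of the origin recognition complex, had 427 and 219 counts (1.63-fold, 1.38 to 1.92), and Mcm10 had 68 and 33 (1.72-fold, 1.12 to 2.69). The list's most abundant genes were Orc3 (16.25 and 8.17 TPM) and Cdt1, the licensing factor (10.17 and 11.05 TPM). Of 20 polymerase and fork accessory genes, 15 had ratios above 0 with a median of 0.22. Rfc4 alone was past 2-fold, on 15 and 5 counts, with an interval from 0.86 to 8.80 that includes 1. It averages 10 counts only through replicate 1, where it is high. Of all genes, 7.12% were 2-fold higher in replicate 1, and 13.7% of those with 10 to 500 counts. Pold2 (71.15 and 94.56 TPM) and Pold1 (43.78 and 52.22 TPM), subunits of DNA polymerase delta, led that list, and Pole had 1.51 and 0.95 TPM.

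Genes for nucleotides, E2F factors and restraint of division were read in the same way. The shares beside them were again 51.7% of all genes with ratios above 0 and 61.9% of those with 10 to 500 counts. Of 8 other nucleotide synthesis genes, 7 had ratios above 0 with a median of 0.10; Samhd1, which breaks down deoxynucleotides, had 76.02 and 65.08 TPM, Tk1 had 389 and 235 counts (1.38-fold, 1.17 to 1.63), and Dut had 444 and 635 (1.71-fold higher in replicate 2, 1.52 to 1.94). Of 15 other E2F, pocket and DREAM genes, 7 had ratios above 0 with a median of -0.11; E2f8 had 96 and 43 counts, E2f5 had 407 and 679, and Lin37, a MuvB subunit, had 26.04 and 25.25 TPM. Of 10 other inhibitors and p53 targets, 2 had ratios above 0 with a median of -0.31. There Btg2, an antiproliferative gene, had 67.31 and 101.84 TPM (1.77-fold higher in replicate 2, 1.71 to 1.83), Sesn2 had 1205 and 1511 counts, and Bax had 89.72 and 74.73 TPM. Of 8 quiescence-associated regulators, 3 had ratios above 0 with a median of -0.55. Klf2, which holds T cells and endothelium quiescent, had 7573 and 18294 counts and was 2.90-fold higher in replicate 2 (2.82 to 2.97), Klf4 was 1.73-fold higher there (1.68 to 1.78), and Txnip had 713.02 and 642.56 TPM.

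**Figure D5:**
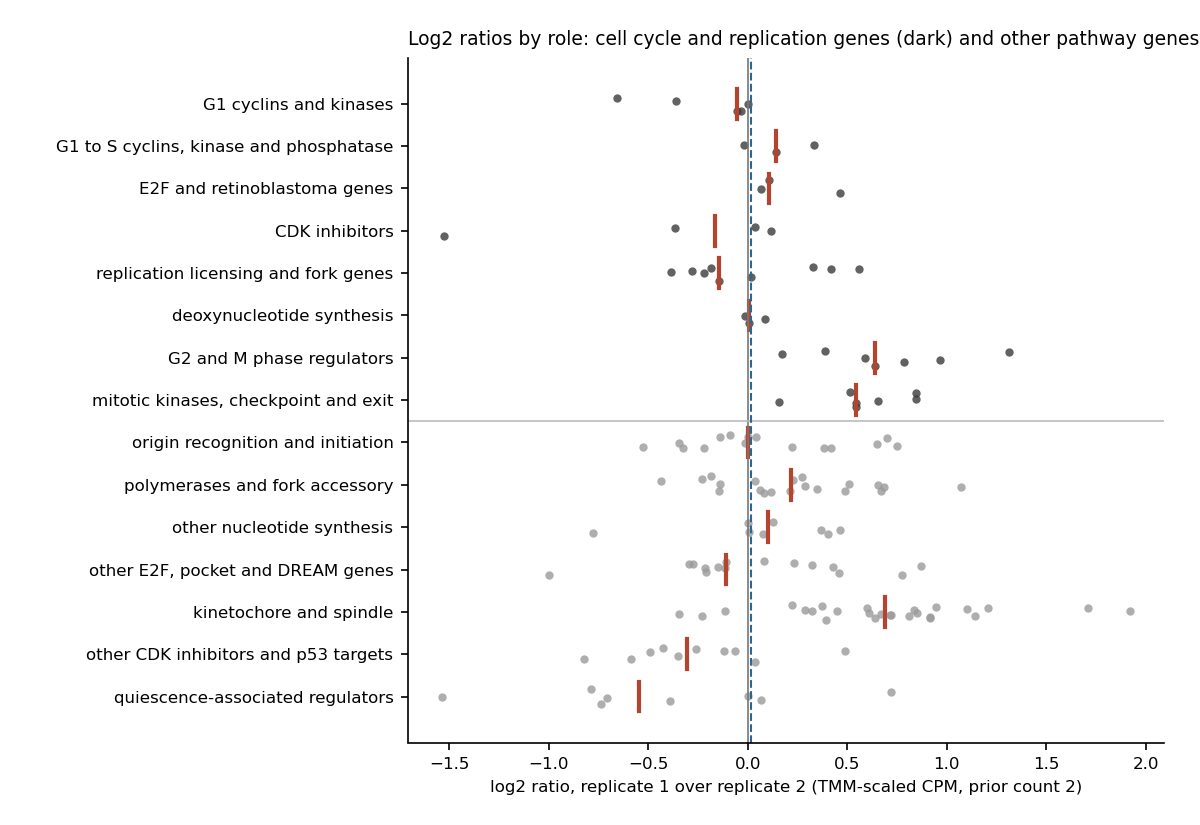
Log2 ratios, replicate 1 over replicate 2, for the 8 roles of the 42 genes (dark) and the 7 wider pathway lists (grey), with a point per counted gene, a red line at each median and a dashed line at the median of all genes tested. The kinetochore and spindle list (median 0.69) and both mitotic roles (0.64 and 0.55) lie right of the other lists.

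The leading transcript was compared between the libraries as well. Among the 26 genes with 2 or more transcripts that were detected in both libraries, 20 shared their leading transcript, beside 84.8% of 9846 such genes overall. The other 6 were Ccna2, Ccne1, Cdc45, Cdk4, Cdkn2c and Tyms. Tyms was led by Tyms-205, annotated for nonsense-mediated decay, in replicate 1 (42.83% against 22.06% in replicate 2), and by the retained-intron Tyms-202 in replicate 2 (36.10% against 27.39% in replicate 1). When transcripts were ranked by counts, 23 of 26 genes kept the same leader.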

How the data were processed

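The lung libraries were polyadenylated RNA longer than 200 nt, read as stranded pairs of 76 nt with spike-ins, per the labels. Each library has a gene table and a transcript table. Their expected counts are estimated fragment numbers with no normalization, per the file headers. The authors' TPM covers every row, including the spike-ins, and the authors' FPKM divides by length and library total. The authors also give the percent of TPM that each transcript takes within its gene, and interval bounds on the TPM scale, treated here as a signal. Per the deposited file lists, mapping was to mm10 with GENCODE release M4. No aligner or quantifier is named in the sources used here. The authors' mm9 contigs and junctions were not used here.

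Symbols and gene coordinates came from GENCODE release M21 on the same build, where 42462 of 43346 identifiers matched. A further 26248 rows of neither kind had 0 and 2 counts in the libraries and were dropped. Counts were rounded for edgeR 4.0.16 (TMM, log2 CPM with a prior count of 2) and DESeq2 1.42.0 (size factors), run in R 4.3.3. Folds, promoters and plots were computed in Python 3.11.15 with pandas 2.3.3, numpy 2.4.6, scipy 1.17.1 and matplotlib 3.10.9. A gene was called when its fold reached 2 and its mean count 10. With 1 group, no test across replicates was possible. All 42 genes are named; of each wider list, the 2 with the highest mean TPM and the 2 with the largest absolute log2 ratio are. The genes and lists were chosen with earlier results of these data known. The calling step was tested on simulated counts. Alternatives covered thresholds, units, pseudocounts, count minimums, scalings, transcripts and leaving out a replicate; those on coding transcripts and on role medians were chosen after seeing the data.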

Additional observations from a re-analysis of the deposited data

How the results depend on the processing

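The number of genes detected in both libraries was 34 and fell to 20 at 5 TPM, and it ran from 34 to 38 in single libraries. The single gene 2-fold higher in replicate 1 became 3 with library size scaling, 4 by log2(TPM + 0.1) and 9 at 1.5-fold, and the number was 0 with spike-in scaling and 0 when the whole interval had to pass 2-fold. The single gene 2-fold higher in replicate 2 became 2 with spike-in scaling and 2 at 1.5-fold. The median log2 ratio, 0.12 with TMM, was -0.23 with spike-in scaling. The median level, 2.74 on the log2 scale, was 2.41 in FPKM and ran from 2.57 to 2.90 in single libraries. At 5 TPM, 13 of 15 genes had the same leading transcript in both libraries, against 20 of 26 at 1 TPM. Among log2 ratios of single genes and role medians under the alternatives, 173 stayed within the counting interval of the gene, or within the replicate SD for a role median, and 77 did not. The cause of these shifts was not tested, except that higher thresholds leave fewer genes by construction. Folds and ratios cannot be computed from a single library. Low counts limit the mitotic genes and Cdc6, Ccne1 and Ccne2. No paired analysis was possible because the labels give 1 group.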
